A study of Gallus gallus with 6 samples.

Results

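The high mobility group (HMG) proteins are abundant chromatin proteins that bind DNA or nucleosomes without strong sequence preference, and 8 of their genes, HMGB1, HMGB2, HMGB3, HMGA1, HMGA2, HMGN1, HMGN2 and HMGN3, were looked up by symbol in a table of 24433 chicken genes. The symbols of 7 were found. HMGN2 had no row of its own, and NCBI's gene table for chicken gives HMGN2 and HMG-17 as other names of the gene listed as HMGN4 (gene 768675). HMGN4 and HMGN5, which the table describes as HMG nucleosome-binding genes, are therefore given beside the members and are not counted among them. RNA was measured in chicken primary myoblasts, muscle precursor cells from leg muscle, in 3 libraries from cells that overexpressed ANKRD9 and 3 from cells with pcDNA3.1, the empty expression vector. The labels give no strain, age, time after transfection or construct design. The study's title concerns inosine monophosphate metabolism, and chromatin genes were not its stated subject.

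HMG proteins fall into 3 families. HMGB proteins carry a pair of HMG boxes and an acidic tail, bend DNA and loosen its wrapping around histones, and HMGB1 outside the cell also acts as an alarm signal. HMGA proteins bind the minor groove of AT-rich DNA through AT-hooks and are typical of embryonic and fast-growing cells. HMGN proteins bind nucleosomes and compete with linker histone H1 for chromatin.

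The deposited values are FPKM, fragments scaled to gene length and library total. Levels of different genes can therefore be compared only as far as the listed gene lengths hold, which was not checked. All 7 members found averaged 1 FPKM or more over the 6 libraries and so belonged to the 11685 genes tested, and their values rested on 484 to 8143 recovered reads in a library. The libraries held between 16158627 and 26310089 recovered reads. ANKRD9 itself stood at 90.5, 104 and 101 FPKM in the ANKRD9 libraries, against 9.46, 8.16 and 10.1 FPKM in the pcDNA3.1 libraries, a higher level in every library labelled for overexpression (exact two-sided permutation test p = 0.1, the smallest that 3 against 3 allows). Of 10 muscle precursor markers, 9 were found, at means from 0.623 FPKM for PAX3 to 370 FPKM for MYF5 in ANKRD9 cells and from 0.669 FPKM for PAX3 to 296 FPKM for MYF5 in pcDNA3.1 cells, and PAX3 alone was below the level for testing. Whether replicate libraries stem from separate cultures is not in the labels, and p-values therefore rest on a spread that may be technical.

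The HMGB and HMGN members were lower with ANKRD9 and the HMGA members were not. Of the 7 members, 5 fell (HMGB1, HMGB2, HMGB3, HMGN1 and HMGN3), 1 rose (HMGA1) and 1 did not pass (HMGA2), at an adjusted p under 0.05 in a limma fit over all tested genes. Among all tested genes 19.8% were lower and 16.3% higher by the same rule. The median log2 fold change of the 7 members was -0.31, beside -0.01 over all tested genes. The values of the groups did not overlap for the 5 members that fell and for HMGA1, while across the table the groups did not overlap for 26.9% of genes in the lower direction and 23.7% in the higher direction. In bulk RNA, fewer cells that express a gene and less of its RNA per cell cannot be told apart.

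**Figure D1:**
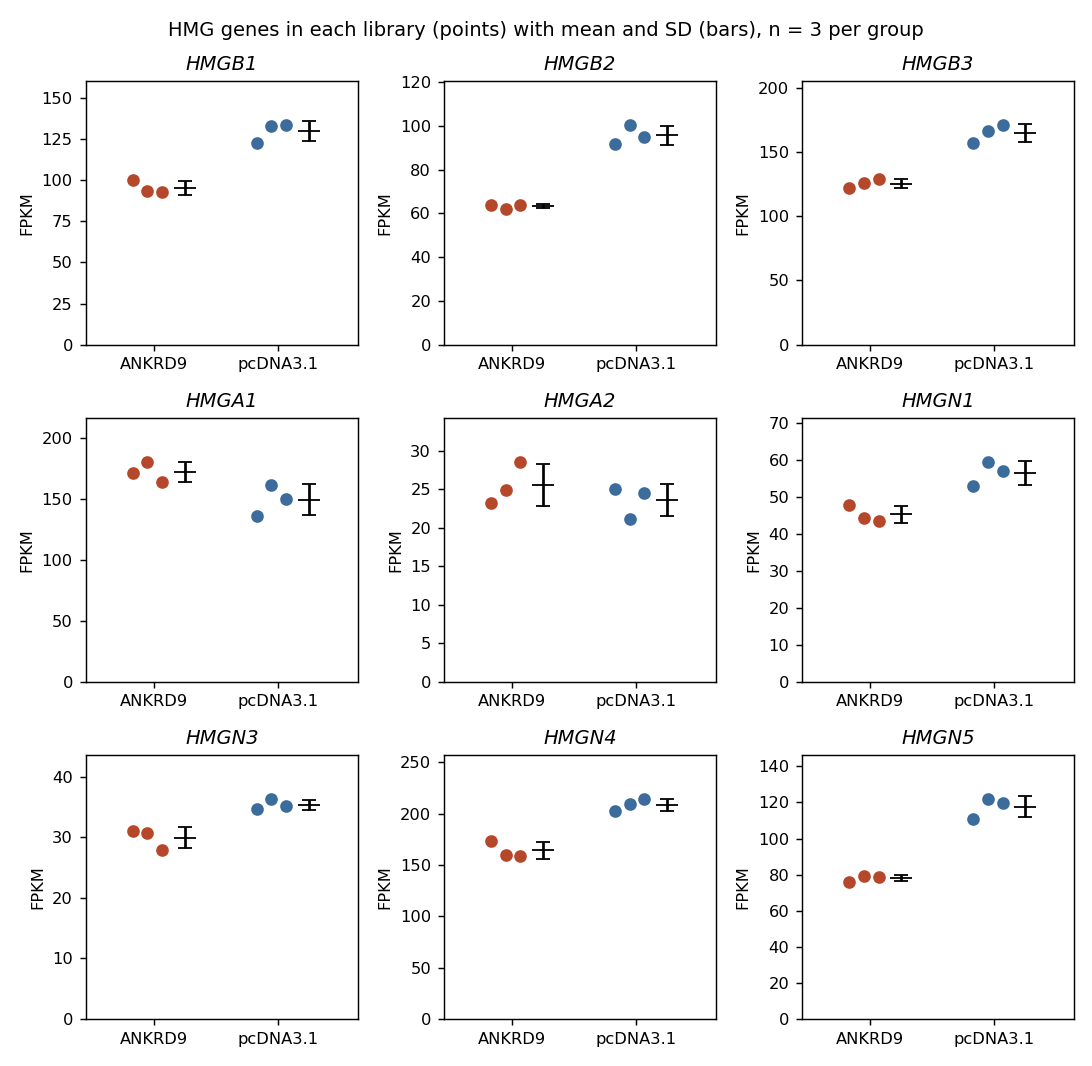
FPKM (y axis, from 0) of the 7 members and of HMGN4 and HMGN5 in each of the 3 ANKRD9 libraries and 3 pcDNA3.1 libraries; each point is a library, and the bars to the right show mean and SD. The ANKRD9 points lie wholly below the pcDNA3.1 points in the HMGB and HMGN panels, wholly above them for HMGA1, and among them for HMGA2.

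HMGB2 showed the largest fall among the members. It encodes an HMGB protein that in mammals is most abundant in dividing cells, and lies on chromosome 4: 43290644-43292707, minus strand (GRCg6a). Its level was 64.0, 62.3 and 63.7 FPKM in the ANKRD9 libraries, against 91.9, 101 and 94.97 FPKM in the pcDNA3.1 libraries. The ANKRD9 values lay within 1.72 FPKM of each other, well below the lowest pcDNA3.1 library. The mean was 63.3 ± 0.917 FPKM with ANKRD9 and 95.8 ± 4.35 FPKM with pcDNA3.1 (SD, n = 3 each), 33.9% lower with ANKRD9. The fitted log2 fold change was -0.59 ± 0.04 (SE), with an adjusted p by limma of 0.000177, and 1.83% of all tested genes had a log2 fold change at or below it.

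HMGB1, the founding member of the family and the source of the extracellular alarm signal, lies on chromosome 1: 176491447-176499617, plus strand. Its level was 100.1, 93.1 and 92.7 FPKM in the ANKRD9 libraries, against 123, 133 and 134 FPKM in the pcDNA3.1 libraries. Every ANKRD9 value was below every pcDNA3.1 value, and the mean was 95.3 ± 4.16 FPKM with ANKRD9 and 130 ± 6.24 FPKM with pcDNA3.1 (SD, n = 3 each), a difference of -26.5%. The fitted log2 fold change was -0.44 ± 0.05 (SE), with an adjusted p by limma of 0.000839. The first 26 bases of the gene's span overlap LOC112531576 on the opposite strand, a gene listed at no more than 0.0509 FPKM in any library.

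HMGB3, which in mouse is best known from blood stem and progenitor cells, was the most abundant HMGB gene in both groups. It lies on chromosome 4: 17646723-17651426, minus strand. Its level was 122, 126 and 129 FPKM in the ANKRD9 libraries, against 157, 167 and 171 FPKM in the pcDNA3.1 libraries. The groups were again fully apart, with means of 125 ± 3.54 FPKM with ANKRD9 and 165 ± 7.05 FPKM with pcDNA3.1 (SD, n = 3 each) and a log2 fold change of -0.39 ± 0.04 (SE; limma, adjusted p = 0.000825). Summed over the 3 HMGB genes, the level was 284 ± 2.44 FPKM with ANKRD9 and 390 ± 16.3 FPKM with pcDNA3.1 (SD, n = 3 each).

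The level of HMGB2 was also set against those of the other HMGB genes within each library. The log2 level of HMGB2 minus that of HMGB1 was -0.64, -0.57 and -0.53 in the ANKRD9 libraries, against -0.41, -0.40 and -0.49 in the pcDNA3.1 libraries. The groups did not overlap, and the difference of -0.15 had an exact two-sided permutation p of 0.1, the smallest that 3 libraries against 3 allow. Against HMGB3, a pair chosen after the values were seen, the HMGB2 level was -0.914, -1.002 and -1.002 in the ANKRD9 libraries, against -0.766, -0.723 and -0.841 in the pcDNA3.1 libraries on the same log2 scale (exact two-sided permutation p = 0.1).

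**Figure D2:**
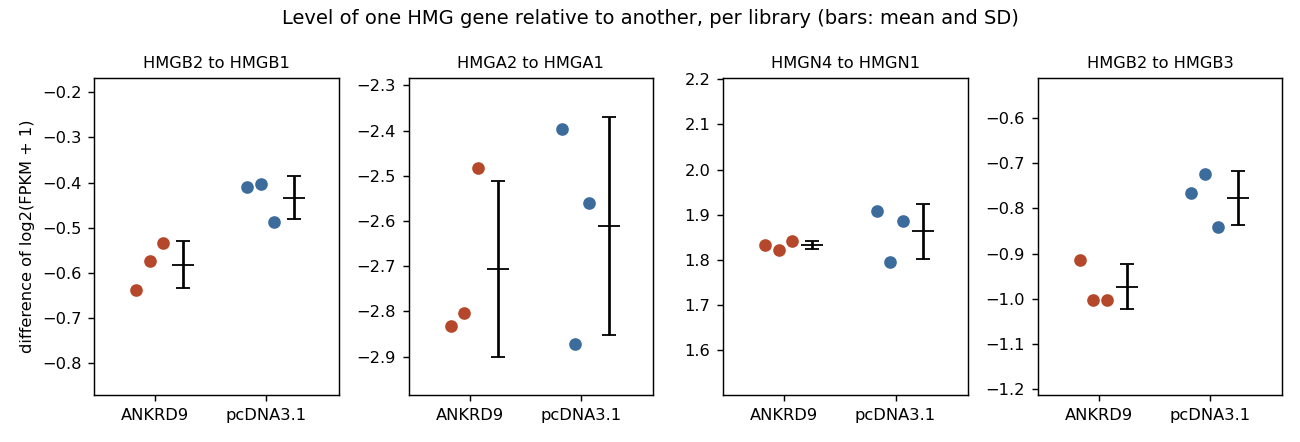
Difference between the log2(FPKM + 1) levels of a pair of HMG genes (y axis, each panel spanning the same range) in each ANKRD9 and pcDNA3.1 library, with mean and SD as bars. The ANKRD9 points lie below the pcDNA3.1 points for HMGB2 to HMGB1 and HMGB2 to HMGB3, and the groups overlap for HMGA2 to HMGA1 and HMGN4 to HMGN1.

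HMGN1, also called HMG-14, lies on chromosome 1: 109326580-109333048, minus strand. Its level was 48.0, 44.4 and 43.6 FPKM in the ANKRD9 libraries, against 53.1, 59.5 and 57.2 FPKM in the pcDNA3.1 libraries. The groups did not overlap, although the highest ANKRD9 library came within 5.09 FPKM of the lowest pcDNA3.1 library. The means were 45.4 ± 2.33 FPKM with ANKRD9 and 56.6 ± 3.25 FPKM with pcDNA3.1 (SD, n = 3 each), with a log2 fold change of -0.31 ± 0.06 (SE; limma, adjusted p = 0.00515).

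HMGN3, a nucleosome-binding protein first found in mammals as a partner of the thyroid hormone receptor, had the smallest fall of the 5. It lies on chromosome 3: 79470021-79494908, plus strand. Its level was 31.1, 30.7 and 27.9 FPKM in the ANKRD9 libraries, against 34.7, 36.3 and 35.2 FPKM in the pcDNA3.1 libraries. All 3 ANKRD9 values were below the pcDNA3.1 values, and the fitted log2 fold change was -0.24 ± 0.05 (SE), with an adjusted p by limma of 0.00963.

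The nucleosome-binding genes outside the symbol list were lower as well. HMGN4, the gene that carries HMGN2 as another name, lies on chromosome 23: 269674-272994, minus strand, and stood at 174, 160 and 159 FPKM in the ANKRD9 libraries, against 202, 209 and 214 FPKM in the pcDNA3.1 libraries. It fell by 0.34 ± 0.05 on the log2 scale (SE; limma, adjusted p = 0.00192). HMGN5, which in mouse has a long acidic tail and counteracts linker histone, lies on chromosome 4: 9382554-9391441, plus strand, and stood at 76.0, 79.2 and 78.5 FPKM in the ANKRD9 libraries, against 111, 122 and 120 FPKM in the pcDNA3.1 libraries. Its log2 fold change of -0.59 ± 0.05 (SE; limma, adjusted p = 0.000195) was close in size to that of HMGB2. The log2 level of HMGN4 minus that of HMGN1, a pair chosen after the planned HMGN2 could not be found, averaged 1.83 ± 0.00973 in ANKRD9 libraries and 1.86 ± 0.0603 in pcDNA3.1 libraries (SD, n = 3 each; exact two-sided permutation p = 0.4).

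**Figure D3:**
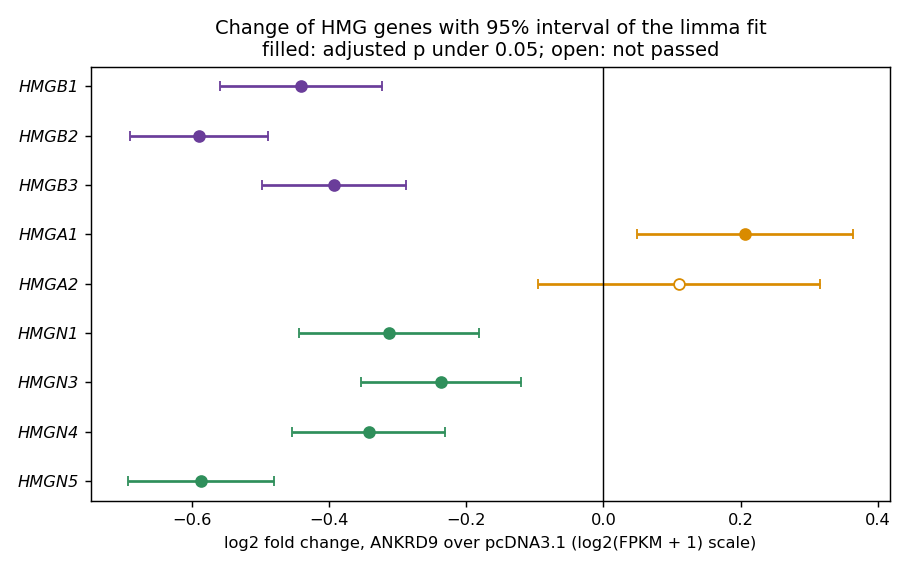
Log2 fold change of ANKRD9 over pcDNA3.1 on the log2(FPKM + 1) scale (x axis) for each HMG gene, with the 95% interval of the limma fit; filled points passed an adjusted p under 0.05. HMGB2 and HMGN5 lie furthest to the left at -0.59 each, HMGA1 lies to the right of 0 and the interval of HMGA2 spans 0.

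HMGA1 went the other way. It encodes an AT-hook protein that in mammals is plentiful in embryonic and proliferating cells, and lies on chromosome 26: 4415430-4421304, minus strand. Its level was 171, 180 and 164 FPKM in the ANKRD9 libraries, against 136, 162 and 150 FPKM in the pcDNA3.1 libraries. The lowest ANKRD9 library stood 2.49 FPKM above the highest pcDNA3.1 library. The means were 172 ± 7.99 FPKM with ANKRD9 and 149 ± 12.8 FPKM with pcDNA3.1 (SD, n = 3 each), and the fitted log2 fold change was 0.21 ± 0.07 (SE), with an adjusted p by limma of 0.0476. This call was narrow, and it was lost without ANKRD9 replicate 1, 2 or 3 or without pcDNA3.1 replicate 1 or 3 (adjusted p between 0.0572 and 0.154), with the log2 fold change positive throughout. A lncRNA gene on the opposite strand, LOC107055185, shares 864 bases of the span and was listed at 1.14 to 2.70 FPKM, and the counting strand is not given in the sources used here.

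HMGA2, the other AT-hook gene, is a growth-associated gene of the embryo that in mammals is held down by let-7 microRNAs. It lies on chromosome 1: 34323957-34428910, plus strand. Its level was 23.2, 25.0 and 28.6 FPKM in the ANKRD9 libraries, against 25.0, 21.2 and 24.5 FPKM in the pcDNA3.1 libraries. The groups overlapped, and the spread was the widest of the members, with a coefficient of variation of 10.7% in ANKRD9 cells and 8.76% in pcDNA3.1 cells. The fitted log2 fold change was 0.11 ± 0.09 (SE), with an adjusted p by limma of 0.360 and a 95% interval from -0.09 to 0.32. The log2 level of HMGA2 minus that of HMGA1 averaged -2.71 ± 0.194 in ANKRD9 libraries and -2.61 ± 0.241 in pcDNA3.1 libraries (SD, n = 3 each; exact two-sided permutation p = 0.7), and a difference between the changes of the AT-hook genes was not detected with 3 libraries a group.

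With these changes the order of levels differed between the groups. In ANKRD9 cells HMGA1 was the most abundant member, followed by HMGB3, HMGB1, HMGB2, HMGN1, HMGN3 and HMGA2, and among neighbouring members the ranges of HMGN3 and HMGA2 overlapped. In pcDNA3.1 cells HMGB3 stood first, with a range that overlapped that of HMGA1, and the remaining order was the same with no overlap between neighbours. HMGN4 exceeded every member in pcDNA3.1 cells and overlapped HMGA1 in ANKRD9 cells. As a share of the summed FPKM of the 7 members, HMGA1 made up 30.9 ± 1.12% in ANKRD9 cells and 22.7 ± 0.970% in pcDNA3.1 cells, and HMGB2 made up 11.4 ± 0.256% in ANKRD9 cells and 14.6 ± 0.316% in pcDNA3.1 cells (SD, n = 3 each). The summed level of the members was 557 ± 6.48 FPKM with ANKRD9 and 655 ± 30.7 FPKM with pcDNA3.1. The share of HMGA1 thus also depends on the fall of other members, and HMGN4 and HMGN5 are not in the sum.

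**Figure D4:**
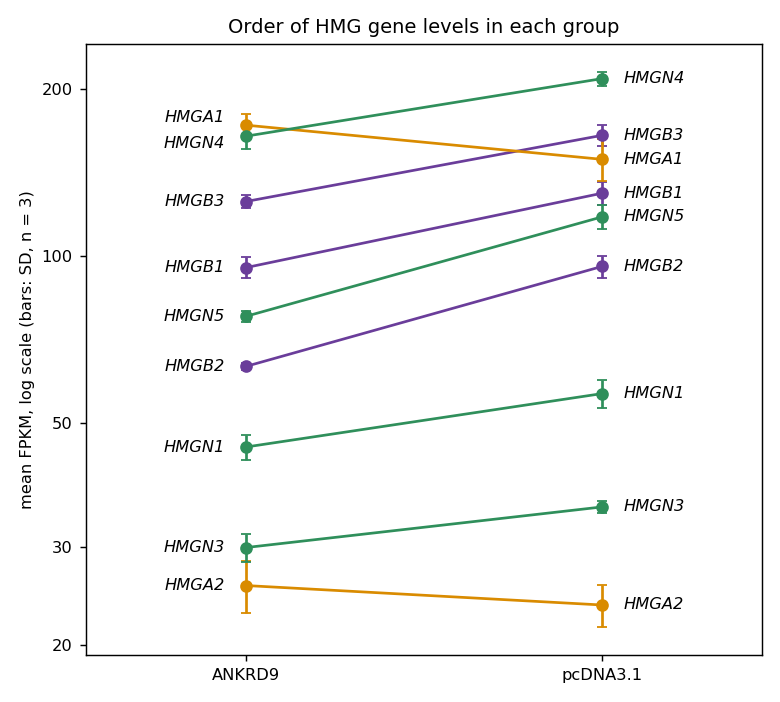
Mean FPKM on a log axis of each HMG gene in ANKRD9 cells (left) and pcDNA3.1 cells (right), with SD bars over 3 libraries and lines joining the same gene; colours mark the HMGB, HMGA and HMGN families. The HMGA1 line crosses those of HMGB3 and HMGN4, and the HMGB and HMGN lines are all lower on the ANKRD9 side.

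Across the 6 libraries, the genes whose log2 levels ran most closely with each member were found among 7819 protein-coding genes with a symbol and a mean of at least 5 FPKM. HMGB2 was followed most closely by COTL1, an actin-binding protein gene (Pearson's r = 0.999), AURKA, the gene of a mitotic kinase (r = 0.999), and SSR1 of the endoplasmic reticulum (r = 0.999), and 672 genes had an r above 0.95 with it. For HMGB1 the closest were CST3, ITGB1BP3 and APOA1, and for HMGB3 they were MSMO1, TMUB1 and DERA (r between 0.997 and 0.999). HMGN1 was closest to PPA1, NDFIP1 and KNSTRN, and HMGN3 to SH3BGRL3, ATP5A1W and RAP2A (r between 0.990 and 0.998). The closest genes to HMGA1 were NDUFS4, ARPC3 and MRPL49 (r between 0.994 and 0.996), and those to HMGA2, which had 4 genes above 0.95, were FNDC3A, USP33 and FBXO30 (r between 0.953 and 0.960). These coefficients are over 6 points in 2 groups, so genes that differ between the groups in a like way score high against each other. FNDC3A, USP33 and FBXO30, like HMGA2, did not pass between the groups (limma, adjusted p between 0.454 and 0.656). With 7819 candidates over 6 points some genes reach a high r by chance, so these cannot be read as partners of HMGA2.

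All 16 tested genes of a list of replication and mitosis genes fell (limma, adjusted p under 0.05; 19.8% of all tested genes were lower), with a median log2 fold change of -0.52. AURKA averaged 15.6 ± 0.350 FPKM in ANKRD9 cells, against 27.1 ± 1.44 FPKM in pcDNA3.1 cells, and the S-phase and mitotic cyclin gene CCNA2 averaged 28.4 ± 0.928 FPKM in ANKRD9 cells and 44.0 ± 1.71 FPKM in pcDNA3.1 cells (SD, n = 3 each). BUB1 of the spindle checkpoint and RRM2 of ribonucleotide reductase fell by 0.72 and 0.50 on the log2 scale. The log2 fold changes of these genes ran from -0.76 for AURKA to -0.38 for PCNA. Those of HMGB1, HMGB2, HMGB3 and HMGN5 lay inside that range. The smaller falls of HMGN1 (-0.31), HMGN3 (-0.24) and HMGN4 (-0.34) lay outside it. The part of proliferation in the HMGB and HMGN values was not tested.

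Markers of other cell types also differed between the groups. For the counts that follow, 19.8% of all tested genes were lower and 16.3% higher by the same rule (limma, adjusted p under 0.05). The 7 fibroblast markers summed to 1373 to 1474 FPKM in ANKRD9 libraries and 1839 to 1887 FPKM in pcDNA3.1 libraries, and 6 of them fell. The 8 leukocyte markers summed to 83.4 to 90.3 FPKM in ANKRD9 libraries and 60.8 to 70.7 FPKM in pcDNA3.1 libraries, with 3 of the 7 tested higher (NCF1, SPI1 and CD3E). NCF1 averaged 41.7 FPKM with ANKRD9 and 24.3 FPKM with pcDNA3.1, and made up most of the difference between the sums. PTPRC, LCP1, CD74 and MPEG1 did not pass, and CD74 averaged 19.2 FPKM with ANKRD9 and 22.6 FPKM with pcDNA3.1. The 9 muscle precursor markers found summed to 965 to 1070 FPKM in ANKRD9 libraries and 953 to 1000 FPKM in pcDNA3.1 libraries, with 2 of 8 tested higher (MYF5 and DES) and 3 lower (MYOD1, PAX7 and NCAM1). MYOD1 averaged 116 FPKM with ANKRD9 and 199 FPKM with pcDNA3.1 (log2 fold change -0.78, limma, adjusted p = 0.000312), and MYF5 and DES were higher by 0.32 and 0.33 on the log2 scale. The call of PAX7 was lost without ANKRD9 replicate 1 or 2, and that of NCAM1 without ANKRD9 replicate 1, 2 or 3 or pcDNA3.1 replicate 1 (limma, adjusted p between 0.0513 and 0.0924). The 4 endothelial markers summed to 6.95 to 7.62 FPKM in ANKRD9 libraries and 6.37 to 7.35 FPKM in pcDNA3.1 libraries, with TEK lower and PECAM1 higher, and the 3 erythroid markers found to at most 0.352 FPKM in ANKRD9 libraries and 0.384 FPKM in pcDNA3.1 libraries, with HBZ at 0 in all 6. Reads on the mitochondrial tRNA and rRNA genes of the table took 0.438% to 0.549% of the ANKRD9 libraries and 0.316% to 0.374% of the pcDNA3.1 libraries. The part of cell composition and of mitochondrial reads in the HMG values was not tested.

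Of 12 other tested HMG-box chromatin genes, 5 fell, 1 rose and 6 did not pass, beside 19.8% lower and 16.3% higher among all tested genes, with a median log2 fold change of -0.08. The gene that rose, HMGXB3, was higher by 0.15 on the log2 scale (limma, adjusted p = 0.0493), a call lost without ANKRD9 replicate 1, 2 or 3 or pcDNA3.1 replicate 2 or 3 (adjusted p between 0.0667 and 0.135). WDHD1, which acts at replication forks, averaged 2.84 ± 0.146 FPKM in ANKRD9 cells, against 4.15 ± 0.292 FPKM in pcDNA3.1 cells (SD, n = 3 each; log2 fold change -0.42, limma, adjusted p = 0.00313). SMARCE1 of the SWI/SNF remodelling complex fell by 0.17 on the log2 scale. UBTF, the HMG-box factor of ribosomal RNA genes, fell by 0.13 (adjusted p = 0.0216, limma), and that call was lost without ANKRD9 replicate 1 or 2 or pcDNA3.1 replicate 3 (adjusted p between 0.0556 and 0.0939). SSRP1, the HMG-box subunit of the histone chaperone FACT, averaged 64.9 ± 0.987 FPKM in ANKRD9 cells, against 66.2 ± 1.61 FPKM in pcDNA3.1 cells (adjusted p = 0.594, limma).

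Among HMG-box transcription factors, 10 of 21 genes were tested, of which 2 were lower, 1 was higher and 7 did not pass, beside 19.8% lower and 16.3% higher among all tested genes. SOX4 averaged 20.1 ± 2.02 FPKM in ANKRD9 cells, against 28.1 ± 2.47 FPKM in pcDNA3.1 cells (SD, n = 3 each; log2 fold change -0.46, limma, adjusted p = 0.00569). TCF7L2, an effector of WNT signalling, was higher by 0.28 on the log2 scale (limma, adjusted p = 0.0148), a call lost without ANKRD9 replicate 2 (adjusted p = 0.0587). SOX8, a marker of muscle satellite cells in mouse, was lower by 0.18 (limma, adjusted p = 0.0308), a call lost without ANKRD9 replicate 1, 2 or 3 or pcDNA3.1 replicate 1 or 3 (adjusted p between 0.0507 and 0.102).

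**Figure D5:**
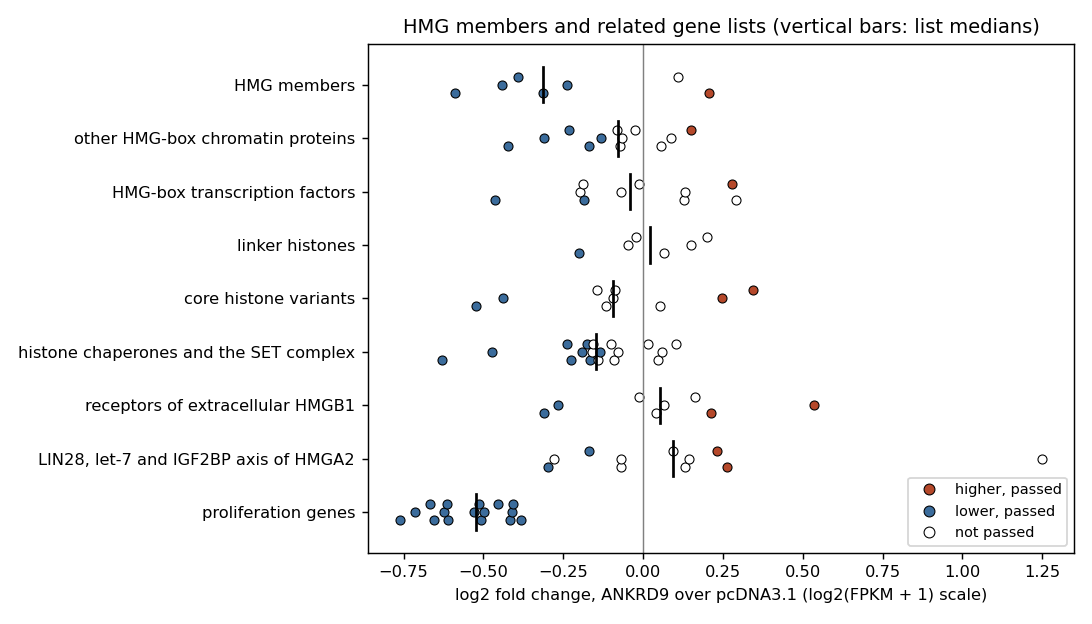
Log2 fold change of ANKRD9 over pcDNA3.1 on the log2(FPKM + 1) scale (x axis) of each tested gene in the HMG members and in 8 related lists; colours mark genes that passed in either direction and open points those that did not pass, and vertical bars mark list medians. The proliferation genes all lie left of 0 with a median of -0.52, the HMG members have a median of -0.31, and the other medians lie between -0.15 and 0.09.

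Linker histones are the proteins with which HMGN proteins compete. Of 6 tested H1 genes, 1 fell and 5 did not pass, beside 19.8% lower among all tested genes, with a median log2 fold change of 0.02. The most abundant, HIST1H101, averaged 362 ± 5.92 FPKM in ANKRD9 cells, against 375 ± 5.11 FPKM in pcDNA3.1 cells (SD, n = 3 each; limma, adjusted p = 0.337). H1FX averaged 33.7 ± 0.448 FPKM in ANKRD9 cells, against 38.9 ± 3.31 FPKM in pcDNA3.1 cells (limma, adjusted p = 0.0371), a call lost without ANKRD9 replicate 1, 2 or 3 or pcDNA3.1 replicate 2 or 3 (adjusted p between 0.0741 and 0.102). Replication-dependent histone transcripts mostly lack a poly(A) tail, so libraries of polyadenylated RNA hold part of them. Whether these libraries were made from polyadenylated RNA is not in the labels.

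Of 9 core histone variant genes, 2 fell, 2 rose and 5 did not pass, shares near those of all tested genes (19.8% lower and 16.3% higher). H2AFV, a gene of the H2A.Z variant, averaged 191 ± 6.78 FPKM in ANKRD9 cells, against 260 ± 21.7 FPKM in pcDNA3.1 cells (SD, n = 3 each; log2 fold change -0.44, limma, adjusted p = 0.00216). CENPA, the centromeric histone H3, averaged 8.25 ± 1.22 FPKM in ANKRD9 cells, against 12.3 ± 1.07 FPKM in pcDNA3.1 cells (adjusted p = 0.00779, limma). H3F3B, a gene of histone H3.3, and H2AFJ were higher by 0.25 and 0.34 on the log2 scale, and both calls were lost without ANKRD9 replicate 2 or pcDNA3.1 replicate 3, and that of H3F3B also without ANKRD9 replicate 1 (adjusted p between 0.0506 and 0.0643, limma).

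Of 18 tested genes of histone chaperones and the SET complex, 8 were lower and 0 higher, beside 19.8% and 16.3% of all tested genes. Their median log2 fold change was -0.15. ANP32E, the chaperone that removes H2A.Z from chromatin, stood at 46.5, 45.6 and 46.0 FPKM in the ANKRD9 libraries, against 71.3, 72.2 and 72.0 FPKM in the pcDNA3.1 libraries (log2 fold change -0.63, limma, adjusted p = 7.39e-05). The groups lay 24.8 FPKM apart at their nearest libraries. HJURP, the chaperone of CENPA, fell by 0.47 on the log2 scale, SET by 0.24 and NAP1L1 by 0.19. In mammals SET and HMGB2 are part of the same complex.

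Of 8 tested genes for receptors and partners of extracellular HMGB1, 2 rose, 2 fell and 4 did not pass, shares near those of all tested genes (16.3% higher and 19.8% lower), with a median log2 fold change of 0.05. CXCL12, the chemokine that forms a complex with HMGB1, averaged 8.85 ± 0.142 FPKM in ANKRD9 cells, against 10.9 ± 0.205 FPKM in pcDNA3.1 cells (SD, n = 3 each; limma, adjusted p = 0.00313). CD24 averaged 3.41 ± 0.253 FPKM in ANKRD9 cells, against 2.04 ± 0.225 FPKM in pcDNA3.1 cells (adjusted p = 0.00255, limma). THBD, the gene of thrombomodulin, was higher by 0.21 on the log2 scale, a call lost without ANKRD9 replicate 2 or 3 or pcDNA3.1 replicate 3 (limma, adjusted p between 0.0522 and 0.0625). TLR2A was lower by 0.31, a call lost without any single library other than ANKRD9 replicate 2 (limma, adjusted p between 0.0527 and 0.0953), and TLR4 was below the level for testing, at 0.101 FPKM with ANKRD9 and 0.191 FPKM with pcDNA3.1.

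Of 11 tested genes around HMGA2 and let-7, 2 were higher, 2 lower and 7 did not pass, shares near those of all tested genes (16.3% higher and 19.8% lower). IGF2BP2, an RNA-binding protein gene that HMGA2 activates in mouse muscle precursors, stood at 29.6, 28.2 and 29.2 FPKM in the ANKRD9 libraries, against 25.6, 23.5 and 22.9 FPKM in the pcDNA3.1 libraries. All ANKRD9 values were above the pcDNA3.1 values (log2 fold change 0.26, limma, adjusted p = 0.00682). Its relative IGF2BP1 fell by 0.30 on the log2 scale (limma, adjusted p = 0.0120). ZCCHC11, a uridylyl transferase that acts on let-7 precursors, was higher by 0.23, a call lost without ANKRD9 replicate 2 or 3 or pcDNA3.1 replicate 2 or 3 (limma, adjusted p between 0.0563 and 0.0706), and XPO5, which exports microRNA precursors, was lower by 0.17, a call lost without ANKRD9 replicate 1 or 2 or pcDNA3.1 replicate 1 (limma, adjusted p between 0.0508 and 0.0924). LIN28A and LIN28B, which block let-7 maturation, averaged 0.0205 and 0.0324 FPKM with ANKRD9, and 0.00385 and 0.0488 FPKM with pcDNA3.1, on at most 4 and 14 reads in a library.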

How the data were processed

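The authors deposited FPKM per gene for 6 libraries in a single table, per the file headers, with gene symbol, position, length and biotype. The submitters' processing notes name CASAVA and the build GRCg6a; for the aligner, counting program, versions and strand setting nothing is given in the sources used here. Columns were assigned to samples by their names, which left 0 value columns over. In each library, 100.0% of the values above 0, once multiplied by gene length, were whole multiples of the smallest such product (tolerance 0.01), and these multiples are the recovered reads; the library total used by the authors differed from their sum by 1.02% to 1.46% in ANKRD9 libraries and by -1.08% to -0.161% in pcDNA3.1 libraries. Recovered reads were used to describe depth and are not independent molecules. They cover counting error only.

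The 11685 of 24433 genes that averaged 1 FPKM or more entered a limma fit (version 3.58.1, R 4.3.3) of log2(FPKM + 1) on group alone, followed by eBayes with a mean trend and Benjamini-Hochberg adjustment over all tested genes at a threshold of 0.05. Log2 fold changes are ANKRD9 over pcDNA3.1 on that scale, which understates changes of low genes. The procedure was run on simulated data with the same spread setting for every gene and far fewer changed genes than were called here. That run checked the code and is no evidence for the calls. Pairs of members were compared by exact two-sided permutation tests. The planned pair of HMGN2 and HMGN1 could not be made. No libraries of a group agreed within sampling noise (chi-square per degree of freedom 2.53 to 7.36 over recovered reads). The members and lists were chosen with earlier results of these data known. Text names ANKRD9, the HMG genes, up to 4 genes of smallest adjusted p per list and the 3 genes most like each member. It also names the cell type markers. Further genes (HMGXB3, SSRP1, SUPT16H, H1F0, PCNA, TLR4, LIN28A and LIN28B) were picked once their values had been seen. WDHD1, SMARCE1, HIST1H101, ANP32E, SET, THBD and ZCCHC11 overlap a gene on the opposite strand. LEF1, MYOD1, PAX7, TEK, PECAM1 and LOC415913 do so as well. H1FX overlaps RAB7A on its own strand, and H1F0 overlaps TRIOBP and GCAT on its own strand. Reads of genes that overlap in this way may not be told apart. Positions come from the table; chromosome names come from genes shared with NCBI's chicken table (assembly GRCg7b), to which 19717 identifiers matched. Sequences were not used here. The values of 1 gene that falls under the rule for named genes are not reported here. Alternatives covered the pseudocount, filter, scaling, eBayes settings, library weights, replicate block and leaving out each library.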

Additional observations from a re-analysis of the deposited data

How the results depend on the processing

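The 5 lower members remained lower and past the threshold in all 17 alternative fits, and HMGA2 did not pass in any. The rise of HMGA1 kept its direction in all 17 but lost its call in 7, so the number of higher members was 0 without a filter, 0 with no eBayes trend, and between 0 and 1 when a library was left out; the number of lower members was 5 throughout. Across all genes the number of higher genes was 1255 to 1764 when a library was left out, lowest without ANKRD9 replicate 2, and the number of lower genes 1577 to 2146. Scaling to the sum of recovered reads, chosen after seeing the data, gave 2240 higher and 2010 lower genes. The main fit had 1900 higher and 2310 lower, so which direction held more genes depended on the scaling. The ANKRD9 minus pcDNA3.1 difference in the log2 ratio of HMGA2 to HMGA1 ranged from -0.227 to 0.0105 when a library was left out and changed sign, to 0.0105, without pcDNA3.1 replicate 1, while the same difference for HMGB2 to HMGB1 stayed between -0.18 and -0.12. The cause was not tested. The alternative fits were compared for 40 of the genes from the lists and markers. Of these 40, 26 kept their side of the threshold in every fit that held them. Of the other 14, LEF1 passed in 3 fits (adjusted p between 0.0363 and 0.0383, limma). Calls of UBTF, SOX8, H1FX, H3F3B, TLR2A, ZCCHC11, XPO5, HMGXB3 and NCAM1 were also lost under other settings with every library kept. Without a filter, SOX8, H1FX, H3F3B, TLR2A, ZCCHC11 and HMGXB3 lost theirs. With the replicate block, UBTF, SOX8, H1FX, ZCCHC11, XPO5, HMGXB3 and NCAM1 did. SOX8 and H1FX each lost the call in 9 of 17 fits. Whether the replicate numbers pair the samples is not in the labels. Deviations from the group mean correlated at -0.196, 0.034 and -0.0797 for same-numbered libraries, and at -0.105 to 0.16 for differently numbered ones. These values, over 3 libraries a group, cannot settle whether the samples are paired. In a fit with the number as a replicate block, 1 member was higher and 5 lower, and HMGA1 had an adjusted p of 0.0492 (limma). That fit had 1420 genes higher and 1693 lower. With 3 libraries a group, permutation tests cannot go below p = 0.1.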

Other observations

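SUPT16H, the partner of SSRP1 in FACT, was listed at 0.115, 0.250 and 0.0524 FPKM in the ANKRD9 libraries. It was listed at 0.0511, 0.0892 and 0.0483 FPKM in the pcDNA3.1 libraries, with at most 4 reads in a library of either group. SSRP1 stood at 64.2 to 66.0 FPKM with ANKRD9 and 64.7 to 67.9 FPKM with pcDNA3.1. The listed gene length was 981 bases for SUPT16H, against 2760 bases for SSRP1. Whether the SUPT16H entry covers the whole gene was not checked, so a low level of SUPT16H cannot be read from it. The linker histone gene H1F0 averaged 0.0719 FPKM with ANKRD9 and 0.0848 FPKM with pcDNA3.1. Its span overlaps TRIOBP and GCAT on the same strand, and how reads shared with them were counted is not known. LOC415913, a lncRNA gene described in the table as HMGI-C-like, had at most 6 reads in any library.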
